A study of Homo sapiens with 2 samples.

Results

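Protease inhibitor genes were compared by RNA sequencing between a bronchial line that overexpresses the cation channel TRPV3 (TRPV3-OE) and its parental BEAS-2B cells, an immortalised human airway epithelial line, with 1 library each. The members were chosen from protein-coding genes whose symbol starts with SERPIN or WFDC, plus SLPI, PI3, SPINT1, SPINT2, CST3, CST6, CSTA and CSTB, and 53 of the 58051 genes in the count tables are described. TRPV3-OE cells were at passages between 4 and 8 and parental cells (genotype WT) at passages between 20 and 30, so passage and TRPV3 cannot be told apart. Both were untreated, grown in the serum-free medium LHC-9 on collagen and fibronectin, and frozen at confluence. How the overexpressing line was made, and whether it came from a single clone, is not given in the sources used here.

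Serpins are single-use inhibitors. The target protease cuts an exposed loop, the serpin refolds, and the protease is trapped in a covalent complex, although some family members have lost this activity and act as chaperones or hormone carriers. Clade A serpins are mostly secreted by the liver, clade B serpins mostly stay inside cells, and clade E serpins restrain plasminogen activation outside them. WAP proteins carry a small disulphide-rich domain and include SLPI, a main antiprotease of airway secretions against neutrophil elastase. Kunitz proteins of the SPINT type sit on epithelial membranes and block matriptase and its relatives, and cystatins block cysteine proteases such as the cathepsins.

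Gene counts totalled 17477953 in the TRPV3-OE library and 17450658 in the parental library. TRPV3 had 54077 counts in TRPV3-OE and 26 in parental cells. With 1 library per group there is no replicate check and no p-value, and the differences compare these libraries. Levels are counts per 1000000 scaled counts (CPM), and levels of different genes are compared in transcripts per 1000000 (TPM), which divide counts by exon length. The 95% intervals are exact for counting error alone, and with 1 library per group they hold no spread between cultures or library preparations. Reads without molecular identifiers are not independent molecules, so even the counting error may be larger than these intervals show. Of 8 epithelial markers 7 reached 100 summed counts in both libraries together, and none of the 7 passed 2-fold. The log2 ratio was 0.55 for EPCAM (4743 counts in TRPV3-OE and 3116 in parental cells), 0.45 for KRT19, 0.38 for KRT8 and 0.35 for KRT18. The basal cell markers TP63 (1580 and 2024 counts) and KRT5 (17827 and 22652) were at −0.41 and −0.40, and CDH1 was at −0.090. KRT14, another basal keratin gene, had 0 counts in TRPV3-OE and 15 in parental cells. The 7 immune cell markers summed to 2 counts in TRPV3-OE and 6 in parental cells, and the 6 hepatocyte markers to 1 and 0. The 5 endothelial markers summed to 3.26 CPM in TRPV3-OE and 16.7 CPM in parental cells, mostly from CDH5 (35 and 268 counts), with VWF at 0 and 4 counts, PECAM1 at 23 and 14, and KDR and TEK at 0 in both. Their part in the results was not tested. In bulk RNA, fewer cells expressing a gene and less RNA per cell cannot be told apart.

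The balance between inhibitor classes differed between the libraries. Summed over the 53 members described, the level was 1917 TPM in TRPV3-OE and 1763 TPM in parental cells. The 33 serpins among them had 458 TPM in TRPV3-OE and 849 TPM in parental cells. This was 23.9% of the members' TPM in TRPV3-OE and 48.2% in parental cells. WAP proteins held 311 TPM (16.2%) in TRPV3-OE, against 32.9 TPM (1.87%) in parental cells. Most of this was SLPI, a short gene, with 265 TPM (13.8%) in TRPV3-OE and 19.7 TPM (1.12%) in parental cells. Only 2 of the 14 WAP genes had at least 100 summed counts. By counts rather than TPM, the WAP share was 3.60% in TRPV3-OE and 0.441% in parental cells. Kunitz inhibitors held 598 TPM (31.2%) in TRPV3-OE and 448 TPM (25.4%) in parental cells, and cystatins 550 TPM (28.7%) and 432 TPM (24.5%). These shares sum to a whole, so a lower serpin share raises the others. In CPM by themselves, the Kunitz sum was 1.20-fold and the cystatin sum 1.37-fold higher in TRPV3-OE, and the serpin sum was 1.99-fold lower.

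**Figure D1:**
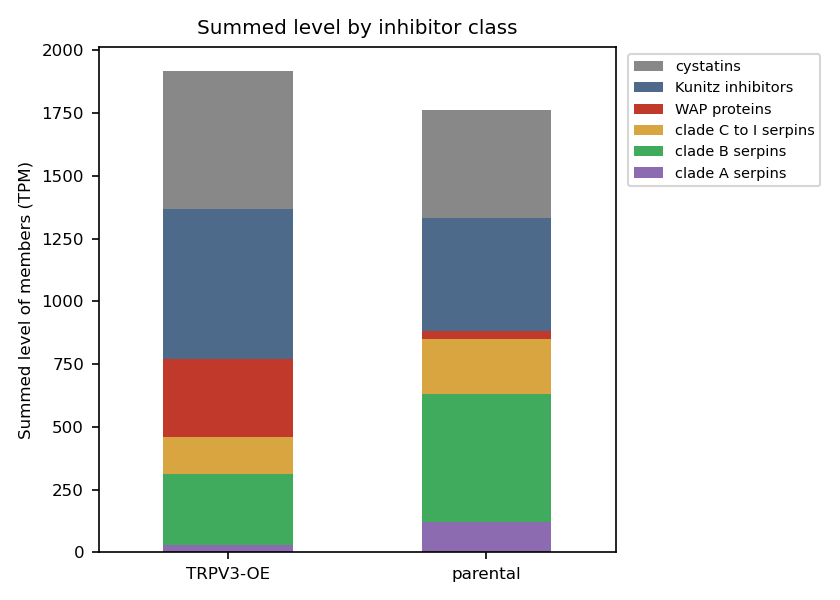
Summed level of the members in TPM in the TRPV3-OE library (left) and the parental library (right), stacked by inhibitor class. The clade B serpins take 282 TPM in TRPV3-OE, against 509 TPM in parental cells, while the WAP proteins take 311 TPM against 32.9 TPM. SLPI alone makes up 265 TPM of the 311 TPM.

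Of the 53 members, 30 had a count in either library, 25 of them in TRPV3-OE and 28 in parental cells, and 23 had 0 in both. At least 100 counts summed over both libraries, the minimum for a gene to be called, were reached by 20 members. A call needed a ratio of 2-fold or more and an interval that did not cross 1. By this rule 3 of the 20 were higher in TRPV3-OE, where 5.31% of all 11466 genes with such counts were, and 4 were lower, where 5.35% were. These shares are 15.0% and 20.0% of the 20. The median log2 ratio of the 20 was −0.12, beside −0.031 for all 11466 genes. Their median absolute log2 ratio was 0.77, against 0.33 for all 11466 genes.

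**Figure D2:**
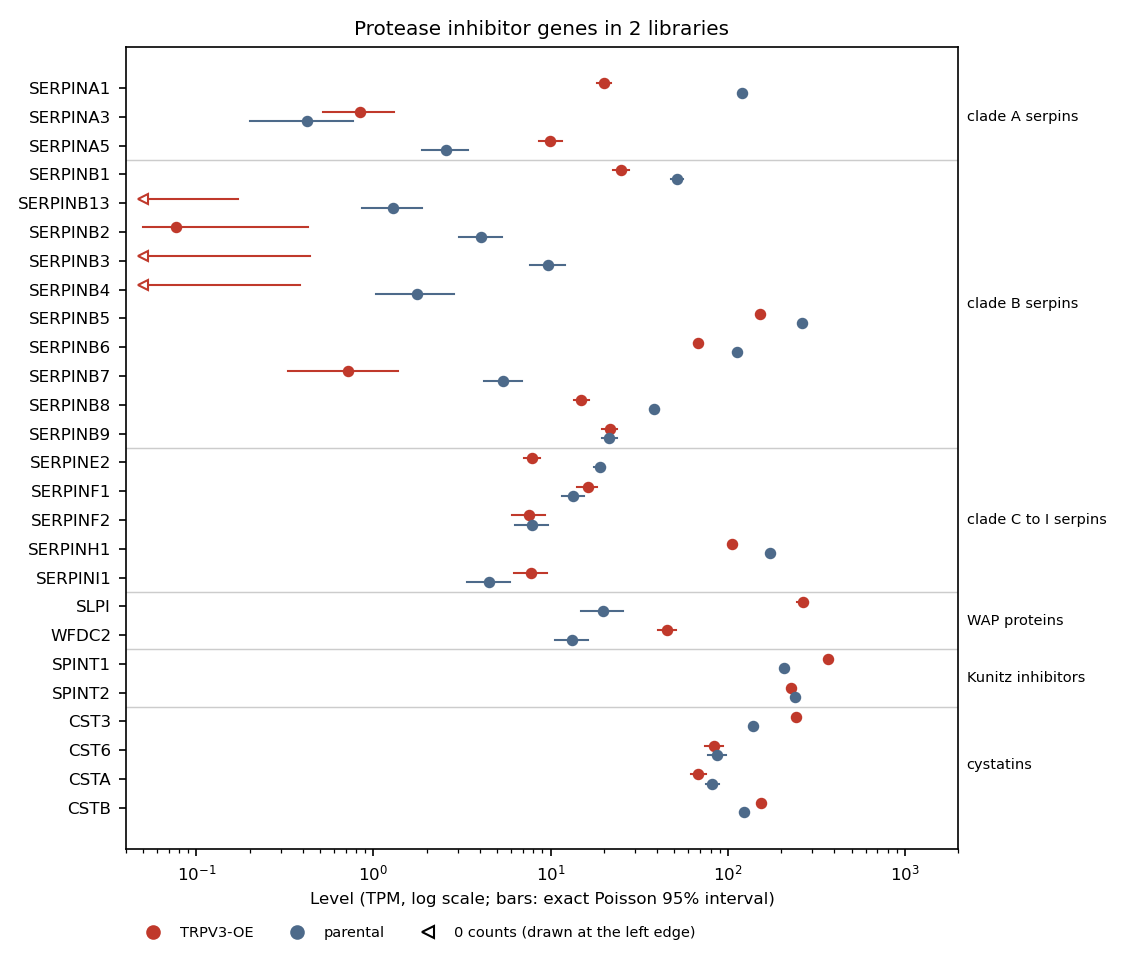
Level of the 26 members with at least 10 summed counts in TPM on a log axis, with exact Poisson 95% intervals where wider than the point, by inhibitor class. TRPV3-OE (red) is drawn above parental (blue) for each gene, and open triangles at the left edge are libraries with 0 counts. The widest gaps are those of SLPI, SERPINA1 and the low clade B serpins.

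Serpins that act on plasminogen activation did not move one way. SERPINE2 was lower in TRPV3-OE, and so was SERPINB2 (1 count in TRPV3-OE and 53 in parental cells, too few for a call), whereas SERPINA5, whose product also inhibits urokinase, was 3.72-fold higher. SERPINB2 and SERPINA5 are described with their gene clusters. SERPINE2 (ENSG00000135919, chromosome 2, 223975112 to 224039319, minus strand, GRCh38), which encodes protease nexin 1, a secreted inhibitor of thrombin and urokinase, had 331 counts in TRPV3-OE and 803 in parental cells. It was 2.52-fold lower (log2 ratio −1.33, −1.52 to −1.15), at 7.86 TPM in TRPV3-OE and 19.0 TPM in parental cells. The 50 nearest measured genes that are not members had a median log2 ratio of 0.17, opposite in sign to SERPINE2. SERPINI1, which encodes neuroserpin, an inhibitor of tissue plasminogen activator first known from neurons, had 89 counts in TRPV3-OE and 52 in parental cells (log2 ratio 0.72, 0.21 to 1.24) and did not reach 2-fold. SERPINF2, the gene of the plasmin inhibitor alpha-2-antiplasmin, had 84 and 88 counts, with an interval that held 0 (−0.57 to 0.32).

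Among 8 measured genes of plasminogen activation, 0 were higher by the call rule and 1 was lower, with a median log2 ratio of −0.11. Over all measured genes the rule called 5.31% higher and 5.35% lower. PLAU, the urokinase gene, had 2129 counts in TRPV3-OE and 1740 in parental cells (log2 ratio 0.23), and its receptor gene PLAUR had 716 and 525 (0.39). PLAT, the gene of tissue plasminogen activator, was the one that was lower, with 560 counts in TRPV3-OE and 1161 in parental cells (2.16-fold, log2 ratio −1.11). After subtraction of the median of the nearest measured genes, PLAT was at −0.99, just below 2-fold. PLAU was then at −0.23 and PLAUR at 0.59. Per length, PLAU stood at 152 TPM in TRPV3-OE and 124 TPM in parental cells. The plasminogen gene PLG and the vitronectin gene VTN, both made mainly by the liver, had 0 counts in both libraries.

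SERPINA1 fell and SERPINA5 rose within one cluster on chromosome 14. SERPINA1 (ENSG00000197249, 94376747 to 94390693, minus strand), the gene of alpha-1-antitrypsin, which inhibits neutrophil elastase and protects the lung, had 463 counts in TRPV3-OE and 2799 in parental cells. This was 26.0 CPM (23.7 to 28.5) against 163 CPM (157 to 170), or 6.29-fold lower (log2 ratio −2.65, −2.80 to −2.51). SERPINA5 (ENSG00000188488, 94561442 to 94593120, plus strand), which encodes protein C inhibitor, had 178 counts in TRPV3-OE and 46 in parental cells, 3.72-fold higher (log2 ratio 1.90, 1.42 to 2.40). SERPINA3, the gene of the cathepsin G inhibitor alpha-1-antichymotrypsin, was near the detection limit with 20 and 10 counts (0.94, −0.22 to 2.20), and 31.7% of its exon bases overlap another gene on the same strand, where reads are not counted. Among the 50 nearest measured genes around this cluster the median log2 ratio was −0.53, but these genes stretch over 11.8 megabases. The measured genes closest to the cluster were mixed. The log2 ratio was −0.52 for DDX24, 0.016 for IFI27L1, −0.86 for IFI27L2 and 0.59 for PPP4R4 before it. Beyond its other end the ratio was −0.14 for DICER1, 0.39 for CLMN, 0.60 for SYNE3 and −0.49 for GLRX5. After subtraction of the median of the 50 genes the SERPINA1 ratio was −2.12 and that of SERPINA5 2.43. The other 7 clade A genes, among them the hormone carriers SERPINA6 and SERPINA7, had 0 counts in both libraries.

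**Figure D3:**
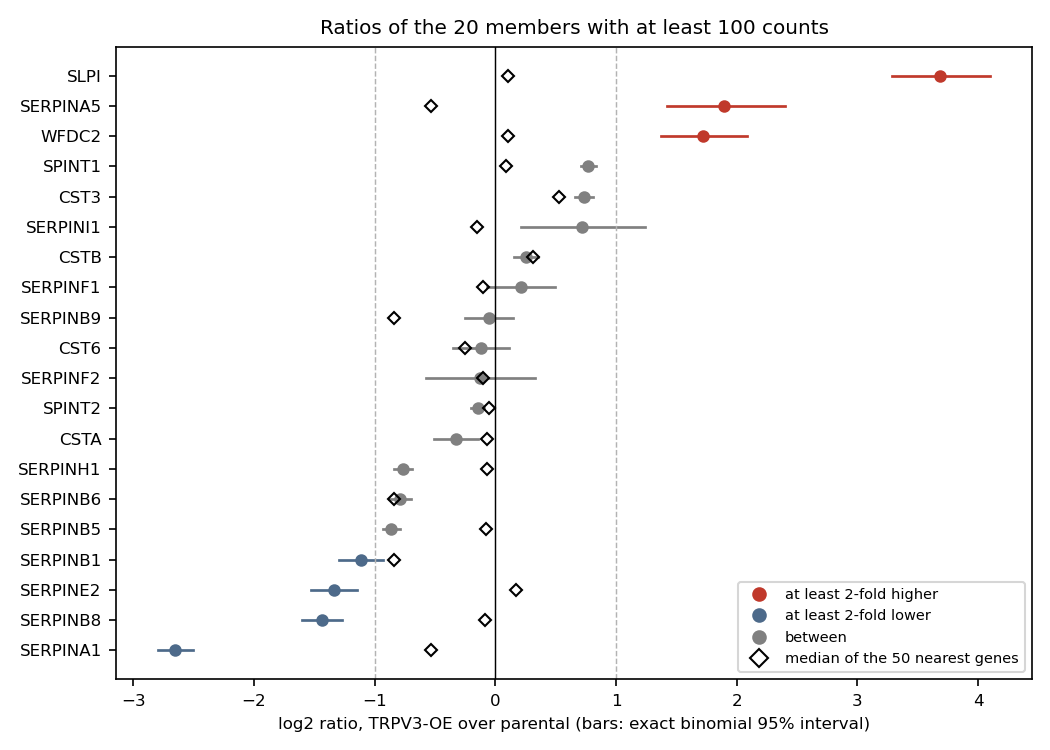
Log2 ratio of TRPV3-OE over parental for the 20 members with at least 100 summed counts, with exact binomial 95% intervals, sorted by ratio. Dashed lines mark 2-fold, and open diamonds give the median of the 50 nearest measured genes on the chromosome that are not members. SLPI lies highest at 3.68 and SERPINA1 lowest at −2.65, while SERPINB1 and SERPINB6 lie near their diamonds.

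Clade B serpins were lower or near parity, and none of the 5 with at least 100 counts was higher. By the call rule 2 of the 5 were lower. Over all measured genes the shares were 5.31% higher and 5.35% lower. On chromosome 18 this clade forms a cluster of 10 genes, in the order SERPINB5, SERPINB12, SERPINB13, SERPINB4, SERPINB11, SERPINB3, SERPINB7, SERPINB2, SERPINB10 and SERPINB8. The 8 genes between SERPINB5 and SERPINB8 summed to 10 counts in TRPV3-OE and 248 in parental cells, a 25.8-fold lower level (log2 ratio −4.69, −5.77 to −3.79). SERPINB3, which encodes squamous cell carcinoma antigen 1, an inhibitor of cysteine cathepsins, had 0 counts in TRPV3-OE and 82 in parental cells, at least 28.4-fold lower if the 0 is set to 3 counts in that library. On the same footing SERPINB13, the gene of headpin, had 0 counts in TRPV3-OE against 28 in parental cells (at least 9.70-fold lower), and SERPINB4, the gene of squamous cell carcinoma antigen 2, 0 against 17 (at least 5.89-fold lower). The 3 counts used for a 0 are 0.168 CPM in the TRPV3-OE library, and the exact interval of a 0 reaches 0.207 CPM. By the exact interval of the ratio, the log2 ratio lies below −4.50 for SERPINB3, −2.88 for SERPINB13 and −2.10 for SERPINB4. These bounds are looser than those from 3 counts. SERPINB2, which encodes plasminogen activator inhibitor 2, had 1 count in TRPV3-OE and 53 in parental cells (log2 ratio −5.78, −11.11 to −3.24). SERPINB7, the gene of megsin, had 9 counts in TRPV3-OE and 68 in parental cells (7.86-fold lower, log2 ratio −2.97, −4.16 to −1.96). These 5 genes have fewer than 100 summed counts and are outside the call rule, and SERPINB10, SERPINB11 and SERPINB12 had 0 in both libraries.

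SERPINB5 and SERPINB8, at the ends of the cluster, were well above the minimum of 100 counts in both libraries. SERPINB5 (ENSG00000206075, 63476761 to 63505085, plus strand), which encodes maspin, a serpin without inhibitory activity known as a tumour suppressor in breast epithelium, had 2827 counts in TRPV3-OE and 4938 in parental cells. It was 1.82-fold lower (log2 ratio −0.86, −0.93 to −0.79) and was not called. SERPINB8 (ENSG00000166401, 63969925 to 64019779, plus strand), an inhibitor of furin-like proteases in biochemical assays, had 414 counts in TRPV3-OE and 1075 in parental cells and was 2.70-fold lower (log2 ratio −1.43, −1.60 to −1.27). Around the cluster, the 50 measured genes closest to it that are not members had a median log2 ratio between −0.090 and −0.077, but these genes stretch over 26.8 to 26.9 megabases. Most of the measured genes closest to the cluster had log2 ratios below 0. The log2 ratio was −0.79 for PHLPP1, −0.78 for KDSR and −0.60 for VPS4B before SERPINB5, and −0.53 for TMX3 after SERPINB8, against 0.12 for ZCCHC2 and 1.29 for BCL2, also before SERPINB5. DSEL, after SERPINB8, had 599 counts in TRPV3-OE and 1153 in parental cells and just met the call for lower. The SERPINB5 ratio of −0.86 lies within the range of these neighbours. The part of a local shift in the values of the cluster was not tested.

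**Figure D4:**
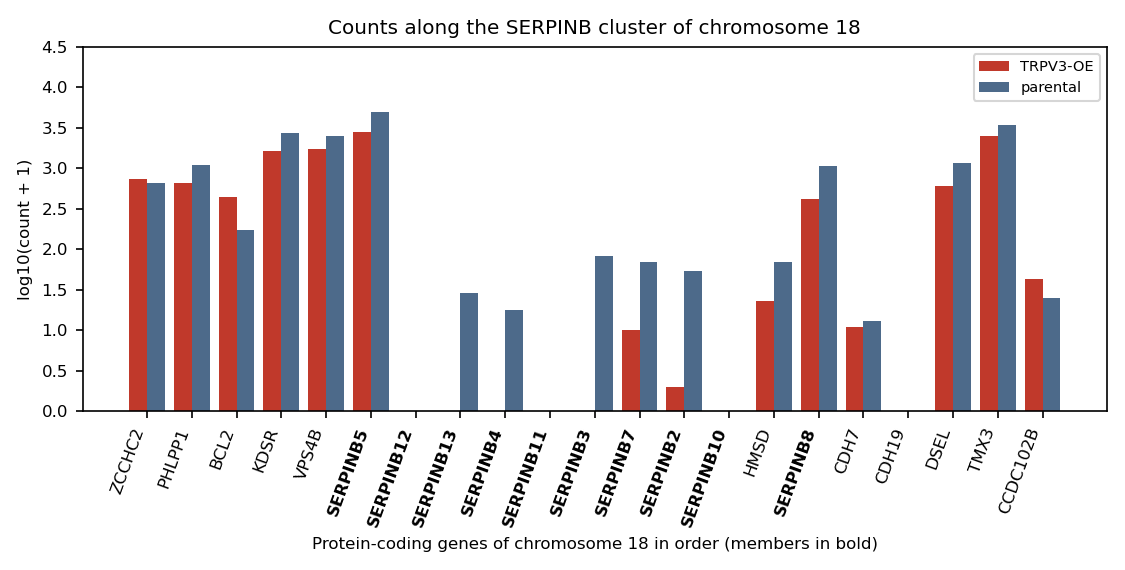
Counts, as log10(count + 1), of protein-coding genes along chromosome 18 in their order, with TRPV3-OE bars left of parental bars and members in bold. Between SERPINB5 and SERPINB8 the TRPV3-OE bars reach at most 9 counts for members, at SERPINB7, while 5 of the 8 members have 17 to 82 counts in parental cells.

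The upstream sequences of these cluster genes are shown to give a feature that the choice of members did not use. RefSeq (GRCh38.p14) gives 250 bases before the start of 36 of the 53 members. In this window the 5 genes SERPINB2, SERPINB3, SERPINB4, SERPINB7 and SERPINB13 held 0 to 4 CpG dinucleotides (median 2), SERPINB8 held 7, SERPINB5 held 13, and the chromosome 6 genes SERPINB1, SERPINB6 and SERPINB9 held 21, 26 and 27. The median over 35116 promoters was 11. Low CpG content was not limited to genes that differed, since the 16 matched members at 0 in both libraries had a median of 1.5 and all 36 matched members a median of 4.0. Over the whole window SERPINB3 and SERPINB4 are 98.8% identical, with 3 differences at 125, 50 and 23 bases before the start. Parts of these windows are exons in the deposited gene models, because the starts differ, and only the bases outside exons are printed. The SERPINB2 and SERPINB13 stretches still lie inside those models, which start at 63871692 and 63586989. They are upstream of the RefSeq start, but not of the gene as counted. For SERPINB3 (chr18:63661964-63662143, minus strand) and SERPINB4 (chr18:63644327-63644506, minus strand) capitals mark the difference at 125:
SERPINB3: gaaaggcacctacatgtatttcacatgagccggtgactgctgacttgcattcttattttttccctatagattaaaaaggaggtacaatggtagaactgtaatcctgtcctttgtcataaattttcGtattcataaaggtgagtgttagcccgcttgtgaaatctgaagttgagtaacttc
SERPINB4: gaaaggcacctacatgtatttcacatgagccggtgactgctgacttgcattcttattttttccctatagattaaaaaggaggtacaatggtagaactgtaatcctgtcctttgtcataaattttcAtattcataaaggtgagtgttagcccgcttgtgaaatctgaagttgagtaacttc
For SERPINB2 (chr18:63887455-63887699, plus strand) and SERPINB13 (chr18:63587128-63587299, plus strand) capitals mark motif matches on either strand:
SERPINB2: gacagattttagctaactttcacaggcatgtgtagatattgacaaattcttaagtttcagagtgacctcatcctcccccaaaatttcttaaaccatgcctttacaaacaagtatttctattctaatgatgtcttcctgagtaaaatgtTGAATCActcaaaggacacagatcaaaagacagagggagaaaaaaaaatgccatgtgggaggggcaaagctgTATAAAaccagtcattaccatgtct
SERPINB13: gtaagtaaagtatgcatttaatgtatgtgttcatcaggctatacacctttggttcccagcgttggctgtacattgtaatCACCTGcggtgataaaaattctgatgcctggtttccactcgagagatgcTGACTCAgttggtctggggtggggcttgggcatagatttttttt
The motifs searched were the TATA box TATAAA, the AP-1 motif TGANTCA, the E-box CACCTG bound by ZEB and SNAIL repressors, and the NF-kappaB motif by name. SERPINB2 had a TATA box that begins 30 bases and an AP-1 match that begins 102 bases before the start. SERPINB13 had an AP-1 match at 87 and an E-box at 136 bases, and SERPINB5 had an AP-1 match at 146 and an E-box at 26 bases. SERPINB8 had 2 overlapping TATA matches, the nearer beginning 140 bases before the start, and 2 AP-1 matches, the nearer beginning at 28 bases. The SERPINB5 matches, and those of SERPINB8 except the farther AP-1 match, lie inside the deposited gene models. SERPINB7 had an NF-kappaB match that begins 207 bases before the start. SERPINB12, at 0 counts in both libraries, had an AP-1 match that begins 45 bases before the start. Of all promoters, 10.7% held the TATA box, 6.57% the AP-1 motif, 17.5% the E-box and 9.96% the NF-kappaB motif. Of the 36 matched members, 6 held the TATA box, 7 the AP-1 motif, 7 the E-box and 4 the NF-kappaB motif. Among the 16 matched members at 0 in both libraries, these counts were 3, 2, 2 and 2. No match was found in the windows of SERPINB3 and SERPINB4. SERPINB3 and SERPINB4 share 23.3% and 20.1% of their transcripts' 50-base stretches with each other, so reads from such stretches may be missing from both counts, and 19.9% of SERPINB2's exon bases overlap SERPINB10.

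The 3 clade B genes on chromosome 6 differed among themselves. SERPINB1 (ENSG00000021355, 2832332 to 2842006, minus strand), an inhibitor of neutrophil elastase and cathepsin G, had 366 counts in TRPV3-OE and 763 in parental cells (2.17-fold lower, log2 ratio −1.12, −1.30 to −0.93). SERPINB6, a cytosolic inhibitor of cathepsin G, had 1521 and 2526 counts (log2 ratio −0.79, −0.88 to −0.70). SERPINB9, which protects cells from granzyme B, had 421 counts in each library (log2 ratio −0.056, −0.25 to 0.14). All 3 lie where the 50 nearest measured genes had a median log2 ratio of −0.84, and after subtraction of it SERPINB1 was at −0.28, below 2-fold, SERPINB6 at 0.051 and SERPINB9 at 0.78. The part of this regional shift in their counts was not tested.

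SERPINH1 and SERPINF1, serpins that do not inhibit proteases, stayed within 2-fold. SERPINH1, which encodes the collagen chaperone of the endoplasmic reticulum, had 2474 counts in TRPV3-OE and 4048 in parental cells (1.70-fold lower, log2 ratio −0.77, −0.84 to −0.69). The median log2 ratio of 11 other collagen folding factors was 0.24. Of these, 1 was called higher and 0 lower, beside 5.31% and 5.35% of all measured genes. That one was P4HA1, a prolyl 4-hydroxylase subunit gene (3524 counts in TRPV3-OE and 1664 in parental cells, 2.04-fold). Its nearest measured genes had a median log2 ratio of 0.45, and after subtraction of it P4HA1 was at 0.58, below 2-fold. PPIB, a prolyl isomerase gene, had a log2 ratio of 0.72, and 0.61 after the same subtraction. The 7 fibroblast markers summed to 16.4 CPM in TRPV3-OE and 24.4 CPM in parental cells, nearly all from COL1A1 (285 and 410 counts), with COL3A1 and LUM at 0 in both. Their part in the SERPINH1 value was not tested. SERPINF1, which encodes pigment epithelium-derived factor, an inhibitor of vessel growth, had 235 and 195 counts (log2 ratio 0.21, −0.067 to 0.49).

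SLPI, a WAP protein, had the highest log2 ratio of the 20 members with at least 100 counts. SLPI (ENSG00000124107, chromosome 20, 45252239 to 45254564, minus strand) had 748 counts in TRPV3-OE and 56 in parental cells, which is 42.0 CPM (39.0 to 45.1) against 3.27 CPM (2.47 to 4.25). It was 12.8-fold higher, with a log2 ratio of 3.68 (3.29 to 4.10), and per length it stood at 265 TPM, second among the members in TRPV3-OE to SPINT1, against 19.7 TPM in parental cells. WFDC2 (ENSG00000101443, chromosome 20, 45469706 to 45481532, plus strand), which encodes a secreted protein of airway and reproductive epithelia also called HE4, had 298 counts in TRPV3-OE and 87 in parental cells (3.29-fold higher, log2 ratio 1.72, 1.37 to 2.08). SLPI and WFDC2 lie in a cluster with most other WAP genes, and of these PI3, the gene of elafin, and WFDC5 each had 1 count in TRPV3-OE and 0 in parental cells, and 9 WFDC genes of the cluster had 0 in both. The 50 nearest measured genes had a median log2 ratio of 0.11. The 250 bases before the RefSeq start of WFDC2 hold 19 CpG dinucleotides and an E-box that begins 17 bases before it. This E-box lies inside the deposited gene model, which starts at 45469706. The 12 genes of neutrophil, mast cell and cytotoxic serine proteases, among them those that SLPI inhibits, summed to 1 count in TRPV3-OE and 0 in parental cells.

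The Kunitz inhibitor gene SPINT1 was the most abundant member in TRPV3-OE. SPINT1 (ENSG00000166145, chromosome 15, 40844018 to 40858207, plus strand), which encodes hepatocyte growth factor activator inhibitor 1, had 6213 counts in TRPV3-OE and 3503 in parental cells (1.71-fold higher, log2 ratio 0.77, 0.71 to 0.83). At 370 TPM in TRPV3-OE, against 208 TPM in parental cells, it ranked 341 and 765 among all genes. SPINT2, the related inhibitor of type 2, had 5610 and 5969 counts (log2 ratio −0.15, −0.20 to −0.093), or 228 TPM against 241 TPM. Among the membrane serine proteases that these proteins block, ST14, the gene of matriptase, had 3091 counts in TRPV3-OE and 1279 in parental cells (2.32-fold higher, log2 ratio 1.22, 1.12 to 1.31), and the prostasin gene PRSS8 had 909 and 612 (log2 ratio 0.51). PRSS22, a tryptase-like protease of airway epithelium, was 2.44-fold higher (370 and 146 counts), while PRSS23, a secreted relative, was lower (1121 and 2699 counts, log2 ratio −1.32). The list of membrane serine proteases and partners also holds HTRA1 (1402 and 1058 counts, log2 ratio 0.35), and not all its genes are targets of these inhibitors. In this list 2 of 5 measured genes were higher and 1 lower, with a median log2 ratio of 0.51. After subtraction of the median of the nearest measured genes, ST14 (1.31), PRSS22 (1.88) and PRSS23 (−1.24) stayed beyond 2-fold. Of all measured genes, 5.31% were higher and 5.35% lower.

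None of the 4 cystatins passed 2-fold. CST3, which encodes the secreted cystatin C, had 4248 counts in TRPV3-OE and 2454 in parental cells (1.66-fold higher, log2 ratio 0.74, 0.66 to 0.81), beside a median log2 ratio of 0.53 over its 50 nearest genes on chromosome 20. CSTB, the cytosolic stefin B, had 1821 and 1471 counts (0.25, 0.15 to 0.35), beside 0.32 around it on chromosome 21. CSTA, stefin A of the cornified envelope in skin, had 444 and 536 counts (−0.33, −0.51 to −0.14). CST6, a secreted inhibitor of legumain and cathepsin L, had 302 and 315 counts (−0.12, −0.35 to 0.12).

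Cysteine cathepsins and legumain, a list that holds targets of the cystatins and of SERPINB3 and SERPINB13, had 1 of 9 measured genes called higher and 1 lower. The shares over all measured genes were 5.31% higher and 5.35% lower. The median log2 ratio of the list was −0.41. CTSF had 98 counts in TRPV3-OE and 12 in parental cells (7.85-fold higher), and CTSO had 31 and 77 counts (2.58-fold lower). After subtraction of the median of the nearest measured genes, the log2 ratio was 3.24 for CTSF. For CTSO it was then −0.66, below 2-fold. The legumain gene LGMN had 1041 and 1299 counts (−0.38), and CTSL 1002 and 1403 (−0.54). After the same subtraction LGMN was at 0.19 and CTSL at −0.38. Kallikreins, serine proteases of skin and gland that several serpins block, were near the detection limit, with 4 counts in TRPV3-OE and 45 in parental cells over 15 genes. Proprotein convertases had 0 of 4 higher and 0 lower (median −0.045, above 0 when scaled by total counts or upper quartile), with FURIN, a target of SERPINB8, at 1350 and 1174 counts.

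Inhibitors of other families had 0 of 11 measured genes called higher and 1 lower, beside 5.31% and 5.35% of all measured genes. The median log2 ratio of these inhibitors was −0.29, and 0.014 with a minimum of 20 counts. The lower one was TFPI2, a Kunitz inhibitor laid down in the extracellular matrix, with 375 counts in TRPV3-OE and 1466 in parental cells (4.06-fold, log2 ratio −2.02, −2.19 to −1.86). The metalloproteinase inhibitor genes TIMP2 (1542 and 2854 counts, −0.94), RECK (107 and 183 counts, −0.83) and TIMP1 (2513 and 3798 counts, −0.65) stayed within 2-fold. After subtraction of the median of the nearest measured genes, TIMP1 was at 0.19, TIMP2 at −0.79 and RECK at −0.64. TFPI2 stayed beyond 2-fold at −2.21.

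**Figure D5:**
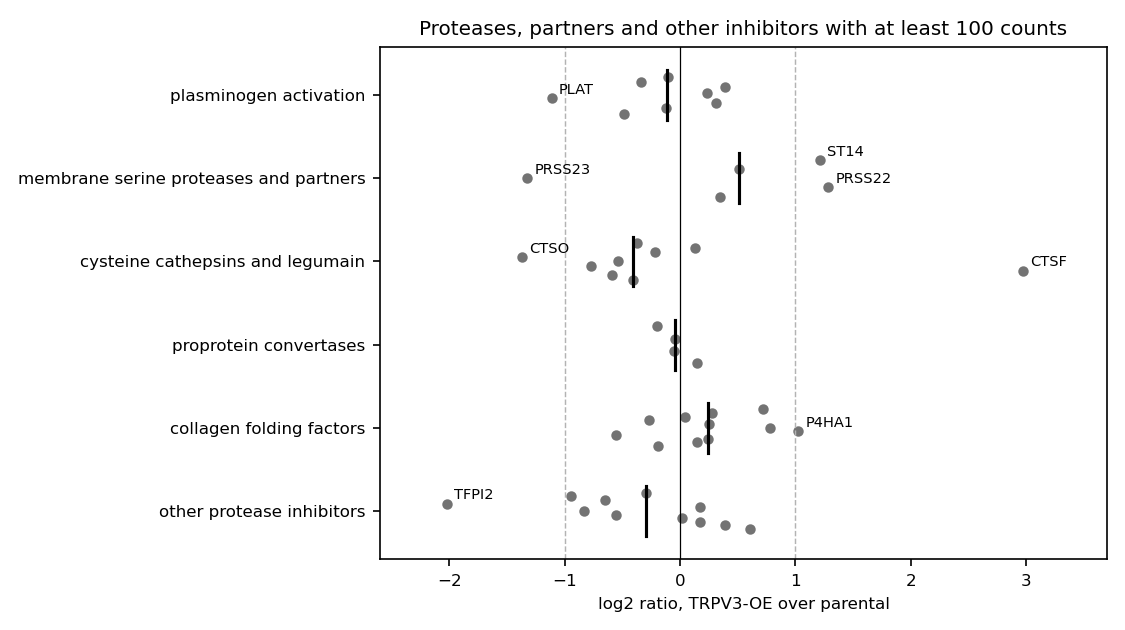
Log2 ratio of TRPV3-OE over parental for genes with at least 100 summed counts in 6 lists of proteases, their partners and inhibitors outside the members. Each point is a gene, black bars are list medians, dashed lines mark 2-fold, and called genes are named. The medians lie between −0.41 for cathepsins and 0.51 for membrane serine proteases and partners.

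The 23 members at 0 in both libraries included the liver serpins SERPINC1 (antithrombin) and SERPIND1 (heparin cofactor 2) and the pancreatic SERPINI2. The others were SERPINA4, SERPINA6, SERPINA7, SERPINA9, SERPINA10, SERPINA11, SERPINA12, SERPINB10, SERPINB11, SERPINB12, WFDC1, WFDC3, WFDC6, WFDC8, WFDC9, WFDC10A, WFDC10B, WFDC11, WFDC12 and WFDC13. SERPINE3 and SERPING1, the gene of the complement C1 inhibitor, had 0 counts in TRPV3-OE and 1 in parental cells. The exact interval of that 1 count reaches 0.325 CPM. For a gene at 0, the level that 3 counts allow was 0.168 CPM in TRPV3-OE and 0.175 CPM in parental cells.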

How the data were processed

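Gene counts of 2 libraries were used, 1 of TRPV3-OE and 1 of parental cells, grouped by the genotype label. The deposited values are raw read counts per gene, counted, per the file headers, by featureCounts 1.5.0-p3 for reads on the strand opposite to the gene, over Ensembl 87 models of GRCh38.p7. The headers show no option for multi-mapping or overlapping reads, which the tool leaves out by default. The submitters' processing notes also name STAR and DESeq2 and give no version.

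Symbols came from a gene name table (56948 of 58051 IDs), biotypes from GENCODE 29, and upstream sequences from RefSeq. Libraries were scaled with TMM factors (1.02 for TRPV3-OE, 0.981 for parental) from edgeR 4.0.16 in R 4.3.3, with no model fitted. Ratios carry exact conditional binomial (Clopper-Pearson) intervals, and a count of 0 was set to 0.5 in list and background ratios. The calculation was tested on simulated data. Every member with at least 10 summed counts is named. From the lists, genes of at least 100 counts were named by the size of their ratio or as direct proteases or partners of members. They are not always the largest ratios of a list. ANXA2 (log2 ratio −0.48), P4HA2 (0.78), CTSH (−0.77) and CTSC (−0.59), among others, reached 100 counts and are not described in the results. 1 gene that fits the rule for members is not reported here, and the counts, sums and shares over members leave it out. The members, lists and motifs were chosen with earlier results of these data known. Alternatives were other scalings (total counts, DESeq2 1.42.0 size factors, upper quartile), a prior count of 5, other count minimums and fold limits, subtraction of the regional median over 50 genes, protein-coding genes alone, and omission of the SERPINB genes. Intervals came from scipy 1.17.1 and sequence work from Biopython 1.88, under Python 3.11.15.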

Additional observations from a re-analysis of the deposited data

How the results depend on the processing

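No paired analysis was possible because there is 1 library of each kind, and no replicate could be left out. The counts of members at least 2-fold higher and lower (3 and 4) were the same under all 3 other scalings and a prior count of 5, and 3 and 3 after subtraction of the nearest genes' median, where SERPINB1 was no longer called. Of all 11438 genes with such a value, 582 were then higher and 430 lower. With a minimum of 1 count 9 of 30 members were lower and with 20 counts 8 of 25, since the low clade B genes then qualify, and with 500 counts 1 of 15 was higher. At 1.5-fold 6 were higher and 7 lower, at 4-fold 1 and 1, and without the SERPINB genes 2 were lower, by construction. Among all genes, 609 were higher and 614 lower, and these became 1347 and 1121 of 22863 genes with a minimum of 1, 1094 and 942 of 13931 with 20, 245 and 323 of 8858 with 500, 1455 and 1627 at 1.5-fold, and 151 and 159 at 4-fold. They were 669 and 547 under total counts, 657 and 561 under size factors and 679 and 541 under upper quartile. The median log2 ratio of all genes (−0.031) was 0.023 with total counts, 0.012 with size factors, 0.027 with upper quartile, −0.014 with a minimum of 20 and 0.0012 after subtraction of neighbours, and that of the members (−0.12) was 0.21 without the SERPINB genes and 0.015 after that subtraction. Of 100 single-member values under other scalings, the prior count and the subtraction, 87 stayed within their interval and 13 moved. Each other scaling shifts all genes by the same amount. A member therefore stays by construction where its interval reaches further from the ratio, on the side of the shift, than the shift itself. Under the subtraction, which differs by region, 11 of the 20 members moved, and the uncalled SERPINB6, SERPINB9, CST6 and CSTB changed sign. SERPINB9 also did under upper quartile (0.0020), and no called member changed sign. Of 71 list medians 59 stayed within their order-statistic interval and 12 moved, those of the fibroblast and endothelial lists, which rest on 1 measured gene each; the fibroblast median was 0.94 with a minimum of 1. The intervals behind this are wide, since the lists are short. The median of the other protease inhibitors (−0.29) was 0.014 with a minimum of 20 and −0.062 after the subtraction, that of the collagen folding factors (0.24) was 0.030 and that of the cathepsins (−0.41) was −0.20 after it. The convertase median (−0.045) was 0.0086 with total counts, 0.013 with upper quartile and 0.068 after the subtraction, so the direction of the inhibitor and convertase medians depends on the setting. Genes with few counts have wide intervals, such as 1.03 on the log2 scale for SERPINI1.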

Other observations

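Relatives of the members that do not code for protein were counted too. WFDC21P, a transcribed pseudogene on chromosome 17, had 0 counts in TRPV3-OE and 21 in parental cells (at least 7.28-fold lower, with the 0 set to 3 counts). The exact interval of its log2 ratio reaches −2.44, a looser bound. SERPINB9P1, beside SERPINB9 on chromosome 6, had 20 counts in TRPV3-OE and 28 in parental cells, and the other 7 such relatives had 0 in both.

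Genes next to the members' clusters gave further values. BCL2, an inhibitor of apoptosis upstream of SERPINB5 on chromosome 18, was 2.45-fold higher in TRPV3-OE (441 and 173 counts), and HMSD, which overlaps SERPINB8, had 22 and 68 counts. DBNDD2, between SLPI and WFDC2 on chromosome 20, had 86 counts in TRPV3-OE and 15 in parental cells (log2 ratio 2.46). TUBB2A, near SERPINB6 on chromosome 6, had 35 and 177 counts (log2 ratio −2.39, where its 50 nearest measured genes had a median of −0.83). These genes were picked after their values were seen.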
